A study of Mus musculus with 6 samples.

Results

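Oxidative phosphorylation couples the passage of electrons from NADH and succinate to oxygen with the making of ATP in the inner mitochondrial membrane. Complexes I, III and IV pump protons as electrons pass through them, complex II feeds in electrons from succinate without pumping, and complex V, the ATP synthase, uses the return of the protons to make ATP. Most subunits are encoded in the nucleus and imported, whereas a core set in complexes I, III, IV and V is encoded in the mitochondrial genome and translated inside the organelle. In the retina, mitochondria are concentrated in the inner segments of photoreceptors and in synaptic terminals. The genes described here were chosen by symbol, as those that start with *Ndufa*, *Ndufb*, *Ndufc*, *Ndufs*, *Ndufv*, *Uqcr*, *Cox4* to *Cox8* or *Atp5*, the 4 *Sdh* genes of complex II, and the mitochondrially encoded *mt-Nd*, *mt-Co*, *mt-Cyt* and *mt-Atp* genes. This rule took 91 of the 11339 genes in the table, of which 84 are nuclear-encoded and 7 mitochondrially encoded. Of the 91, 80 encode subunits and 11 do not. The 11 others are the 8 *Ndufaf* assembly factors of complex I, the supercomplex factor *Cox7a2l*, *Atp5s* (now *Dmac2l*) and *Atp5sl*, the older symbol of *Dmac2*, which is also an assembly factor of complex I and is counted apart from the *Ndufaf* genes. *Ndufa4*, named after complex I, is counted with complex IV, of which its protein is a subunit. A further 11 nuclear and 6 mitochondrially encoded genes of the mouse annotation match the rule but were not analysed here, among them *mt-Co2*, *mt-Co3*, *mt-Atp6* and *mt-Atp8*.

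RNA was sequenced from whole retinas of P14 mice in 2 groups of 3 biological replicates, with 2 retinas in each sample. *Mll1KO* mice have the genotype MLL1 fl/fl with a transgene by which progenitors of the retina make Cre, and WT mice are wild type, with the strain of both groups given as C57Bl6/J. The control group is not labelled as carrying Cre or the floxed alleles, so that an effect of these and an effect of the deletion cannot be told apart. Expression is given as RPKM, in which reads are divided by gene length and library size, which allows levels of different genes to be set side by side. Recovered library totals were 23836033 (a), 19777205 (b) and 19323512 (c) for WT and 23348923 (a), 19855963 (b) and 17961097 (c) for *Mll1KO*, so that both a libraries were the deepest of their group. Differences of single genes between genotypes below were tested with limma on log2(RPKM + 1). The p-values had Benjamini-Hochberg adjustment over all 11339 genes, with calls at an adjusted p of 0.05. Differences in summed RPKM and in ratios were not tested. The log2 fold changes of *Mll1KO* over WT are on the log2(RPKM + 1) scale, which understates the change of weakly expressed genes. Among the 91 genes the fewest recovered reads in any library were 95, for the assembly factor *Ndufaf6*.

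*Kmt2a* (*Mll1*), the gene deleted in these mice, had an RPKM of 36.1, 36.9 and 34.6 in WT replicates a, b and c and of 22.9, 20.4 and 22.3 in *Mll1KO* replicates a, b and c. All *Mll1KO* samples lay below all WT samples, with a log2 fold change of -0.69 (95% interval -0.80 to -0.58, limma adjusted p = 2.77e-05). The value is for the whole gene and includes exons that Cre does not excise.

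Few of the oxidative phosphorylation genes differed between *Mll1KO* and WT retinas. Among the 91 genes, 4 were called lower in *Mll1KO* (*Cox6c*, *Cox5b*, *Ndufa1* and *Ndufa3*) and 0 higher, that is 4.40% of the members, beside 23.3% of all 11339 genes in either direction, 8.81% higher and 14.5% lower. At an unadjusted limma p of 0.05, 3 members were higher, among them *Sdha* and *Ndufa4*, and 8 lower, and limma-voom on the recovered reads called 0 higher and 4 lower. Over all genes these counts were 1543 higher and 2643 lower at the unadjusted p (36.9%, beside 12.1% of the members) and 1082 higher and 1821 lower by limma-voom. Because the tissue was bulk RNA, fewer cells of a type and less RNA per cell cannot be told apart in these values. The split of calls depended on scaling: with TMM factors 1257 genes were called higher and 1163 lower, in place of 999 and 1644, and the members called were *Sdha* as higher and *Cox6c* and *Ndufa1* as lower. RLE and upper-quartile factors called the same 2 lower, with *Sdha* higher under both and *Ndufa4* higher under RLE alone.

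The sizes of the differences were small. The median log2 fold change was -0.02 over the 91 members and -0.03 over all genes, and it ranged from -0.36 for *Cox6c* to 0.18 for the assembly factor *Ndufaf8*. Only 4 members (4.40%) had a log2 fold change beyond 0.2 in either direction, beside 19.0% of all genes, and these were *Cox6c*, *Cox5b*, *Ndufa1* and the uncalled *Ndufs5*. The 95% interval of the fold change lay wholly between -0.3 and 0.3 for 76 members (83.5%) and for 73.5% of all genes. It lay between -0.5 and 0.5 for 90 of the 91 members, *Cox6c* being the exception. The *Mll1KO* and WT values did not overlap for 12 members (13.2%), 2 with *Mll1KO* above and 10 with *Mll1KO* below, beside 41.1% of all genes. These shares were reached at a similar precision, since the median half-width of the interval was 0.127 over the members and 0.125 over all genes. The median coefficient of variation between replicates was 4.95% over the members and 4.72% over all genes.

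**Figure D1:**
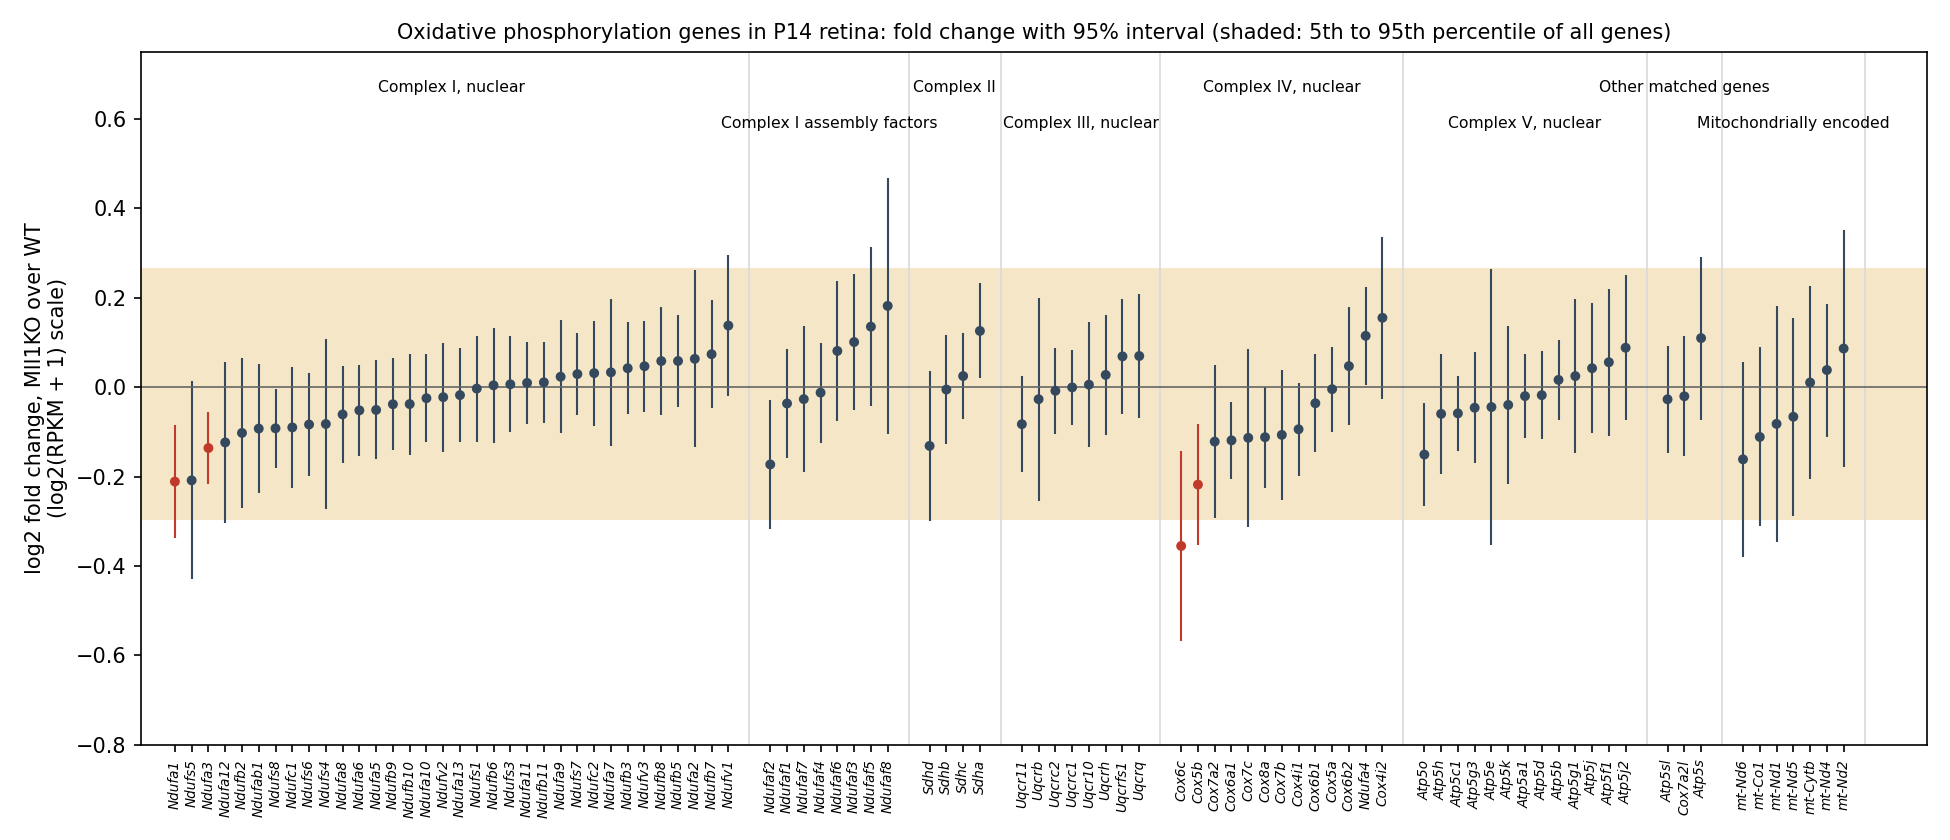
Each point is the log2 fold change of *Mll1KO* over WT (n = 3 and 3 samples) of 1 gene, with 90 of the 91 shown, on the log2(RPKM + 1) scale, and each vertical line its 95% interval, with genes ordered by fold change within each complex. The 4 genes called lower by limma are red, the band spans the 5th to 95th percentile of the fold changes of all 11339 genes, and only *Cox6c* lies outside it.

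Complex I, the NADH dehydrogenase, is the largest of the complexes, and 35 of its nuclear subunits were listed. The 7 nuclear core subunits, which carry the flavin and the iron-sulfur clusters of the matrix arm, gave 0 calls by limma and 0 by limma-voom, with 1 higher and 1 lower at an unadjusted p of 0.05. Their median log2 fold change was 0.01. The highest was *Ndufv1*, the subunit that binds NADH and flavin, with 50.6, 59.8 and 60.8 RPKM in WT replicates a, b and c and 59.0, 63.3 and 66.0 RPKM in *Mll1KO* replicates a, b and c. These values overlapped between groups (log2 fold change 0.14, 95% interval -0.02 to 0.29, limma adjusted p = 0.186), and the fold change was 0.05 without WT sample a and -0.16 with the rod scaling. *Ndufs8*, an iron-sulfur subunit and the lowest of the 7, was below WT in all *Mll1KO* samples, but the difference of -0.09 was not called (limma adjusted p = 0.119).

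The 28 accessory subunits, which surround the core and are needed for its assembly and stability, included 2 called lower (7.14%, beside 14.5% of all genes). Without WT sample a limma also called *Ndufa12* and *Ndufs4* lower (adjusted p = 0.00793 and 0.0245). *Ndufa1*, an X-linked membrane-arm subunit (chromosome X, 37187588 to 37191163, minus strand of GRCm38), had 112.0, 110.7 and 122.0 RPKM in WT replicates a, b and c and 99.6, 92.7 and 105.2 RPKM in *Mll1KO* replicates a, b and c. All *Mll1KO* values were below all WT values, at 86.3% of the WT mean (log2 fold change -0.21, 95% interval -0.34 to -0.09, limma adjusted p = 0.0234). *Ndufa3*, named after its values were seen (chromosome 7, 3617373 to 3620327, plus strand), had 60.1, 60.3 and 59.7 RPKM in WT and 55.2, 53.1 and 55.3 RPKM in *Mll1KO* replicates a, b and c. The samples of each genotype were close to each other and the groups did not overlap, with *Mll1KO* at 90.9% of WT (log2 fold change -0.14, 95% interval -0.22 to -0.05, limma adjusted p = 0.0239). *Ndufs5* had a log2 fold change of similar size to *Ndufa1*, -0.21, but its values of 12.5, 10.2 and 12.8 RPKM in WT and 11.7, 9.60 and 9.06 RPKM in *Mll1KO* overlapped, and it was not called (limma adjusted p = 0.156) except without *Mll1KO* sample a (-0.31, adjusted p = 0.0369) or with the rod scaling. The most abundant nuclear subunit of complex I, *Ndufb9*, stood at 151 ± 5.78 RPKM in WT and 147 ± 5.73 RPKM in *Mll1KO* (SD, n = 3 each), a log2 fold change of -0.04 with an interval from -0.14 to 0.06.

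The 8 *Ndufaf* assembly factors of complex I, which help build the enzyme and do not stay in it, had a lower median level than the nuclear subunits of the complex, 9.11 RPKM beside 41.4 RPKM, and gave 0 calls by limma and by limma-voom, with 0 higher and 1 lower at an unadjusted p of 0.05. That 1 was *Ndufaf2*, with 11.1, 11.2 and 11.97 RPKM in WT and 10.7, 9.05 and 10.3 RPKM in *Mll1KO* replicates a, b and c. Its groups did not overlap, and the fold change of -0.17 was not called (limma adjusted p = 0.0794), but it was without *Mll1KO* sample a (-0.22, adjusted p = 0.0449). *Ndufaf2* is also the member with the most sequence in common with other genes, since 64.1% of its 50-base stretches also occur in other annotated transcripts. The annotation places 65.65% of its exonic bases opposite the noncoding gene *B230220B15Rik*, whose reads cannot be told apart from its own without strand. *Ndufaf8* had the highest fold change of all members, 0.18, with a wide interval from -0.11 to 0.47, and WT sample a at 6.54 RPKM stood below the other 5 samples, which lay between 9.34 and 10.5 RPKM. Its fold change was 0.00 without WT sample a and 0.31 without WT sample c, so that its place rests on 1 library. WT sample a was the lowest of the WT samples for all 8 of these assembly factors. *Atp5sl* (*Dmac2*) was not called either, with a log2 fold change of -0.03 (95% interval -0.15 to 0.09).

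Complex II, succinate dehydrogenase, also a citric acid cycle enzyme, is wholly nuclear-encoded, and its 4 genes gave 0 calls by limma and by limma-voom, with 1 higher and 0 lower at an unadjusted p of 0.05. *Sdha*, the flavoprotein that oxidises succinate, had 81.2, 84.7 and 91.4 RPKM in WT and 92.6, 93.2 and 94.8 RPKM in *Mll1KO* replicates a, b and c. Each *Mll1KO* value exceeded each WT value by a small margin (log2 fold change 0.13, 95% interval 0.02 to 0.23, limma adjusted p = 0.0844). The adjusted p was 0.0327 with TMM factors and 0.0252 without WT sample c, within a range of 0.0252 to 0.209 over all alternatives but the scaling of libraries to the same rod sum, which turned the fold change to -0.18. *Sdhb*, the iron-sulfur subunit, was at 27.7 ± 2.16 RPKM in WT and 27.6 ± 0.255 RPKM in *Mll1KO* (SD, n = 3 each). The membrane anchors *Sdhc* and *Sdhd* had log2 fold changes of 0.02 and -0.13, with intervals from -0.07 to 0.12 and from -0.30 to 0.04. *Sdhd* was called lower without WT sample a (-0.21, limma adjusted p = 0.0496).

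Complex III, which passes electrons from ubiquinol to cytochrome c, had 8 nuclear subunits listed, and 0 were called by limma or limma-voom, with 0 in either direction at an unadjusted p of 0.05. Their fold changes spanned the narrowest range of complexes I to V, from -0.08 for *Uqcr11* to 0.07 for *Uqcrq*, which was 0.00 without WT sample a, and the groups overlapped for each of the 8. The most abundant, the core protein gene *Uqcrc1*, had 156.5, 151.8 and 153.8 RPKM in WT and 154.3, 156.0 and 151.6 RPKM in *Mll1KO* replicates a, b and c. The interval of its fold change ran from -0.08 to 0.08.

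Complex IV, cytochrome c oxidase, which hands electrons to oxygen, held the 2 members with the lowest fold changes. Of its 13 nuclear subunits 2 were called lower (*Cox6c* and *Cox5b*), which at 15.4% is close to the 14.5% of all genes called lower. A fold change below 0 was seen for 10 of the 13, beside 6765 of all 11339 genes. Their median was -0.11, beside -0.03 for all genes. This median stayed below 0 in every alternative, between -0.11 and -0.06 in those other than the rod scaling, in which it was -0.40 beside -0.30 for all genes. The summed RPKM of the 13 was 1485, 1500 and 1549 in WT replicates a, b and c and 1459, 1433 and 1464 in *Mll1KO* replicates a, b and c, so that *Mll1KO* stood at 96.1% of WT without overlap. That lack of overlap holds for the deposited scaling and is not kept with TMM, RLE or upper-quartile factors. Values did not overlap for 5 of the 13 subunits (38.5%, beside 41.1% of all genes), 4 with *Mll1KO* below WT and 1, *Ndufa4*, with *Mll1KO* above.

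*Cox6c*, a small membrane-spanning subunit (chromosome 15, 35925886 to 35938246, minus strand), had 24.8, 26.4 and 25.3 RPKM in WT and 17.2, 18.7 and 23.8 RPKM in *Mll1KO* replicates a, b and c. *Mll1KO* sample c was close to the WT samples and the other *Mll1KO* samples were well below them, and the groups did not overlap. *Mll1KO* stood at 78.0% of WT (log2 fold change -0.36, 95% interval -0.57 to -0.14, limma adjusted p = 0.0245). The call was lost when any library other than *Mll1KO* sample c was left out (adjusted p from 0.0549 to 0.0798), and without *Mll1KO* sample c the fold change was -0.49 (adjusted p = 0.00102). *Cox5b*, a zinc-binding subunit on the matrix side, named after its values were seen (chromosome 1, 36691449 to 36693681, plus strand), had 82.7, 71.8 and 78.7 RPKM in WT and 67.6, 70.1 and 62.3 RPKM in *Mll1KO* replicates a, b and c. WT sample b and *Mll1KO* sample b were close to each other, and *Mll1KO* stood at 85.8% of WT (log2 fold change -0.22, 95% interval -0.35 to -0.08, limma adjusted p = 0.0277). With TMM, RLE or upper-quartile factors neither *Cox5b* (adjusted p from 0.0551 to 0.0694) nor *Ndufa3* (from 0.0697 to 0.0758) was called, and limma-voom did not call *Ndufa3* either (adjusted p = 0.0589). Each of the 4 calls was lost without 1 or more single libraries: *Ndufa1* without WT sample c (adjusted p = 0.0718) or *Mll1KO* sample b (0.0788), *Cox5b* without WT sample a (0.0856), WT sample c (0.0718) or *Mll1KO* sample c (0.106), and *Ndufa3* without WT sample b (0.0821), WT sample c (0.0517), *Mll1KO* sample b (0.0861) or *Mll1KO* sample c (0.0574). All 4 fold changes stayed below 0 in each alternative.

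**Figure D2:**
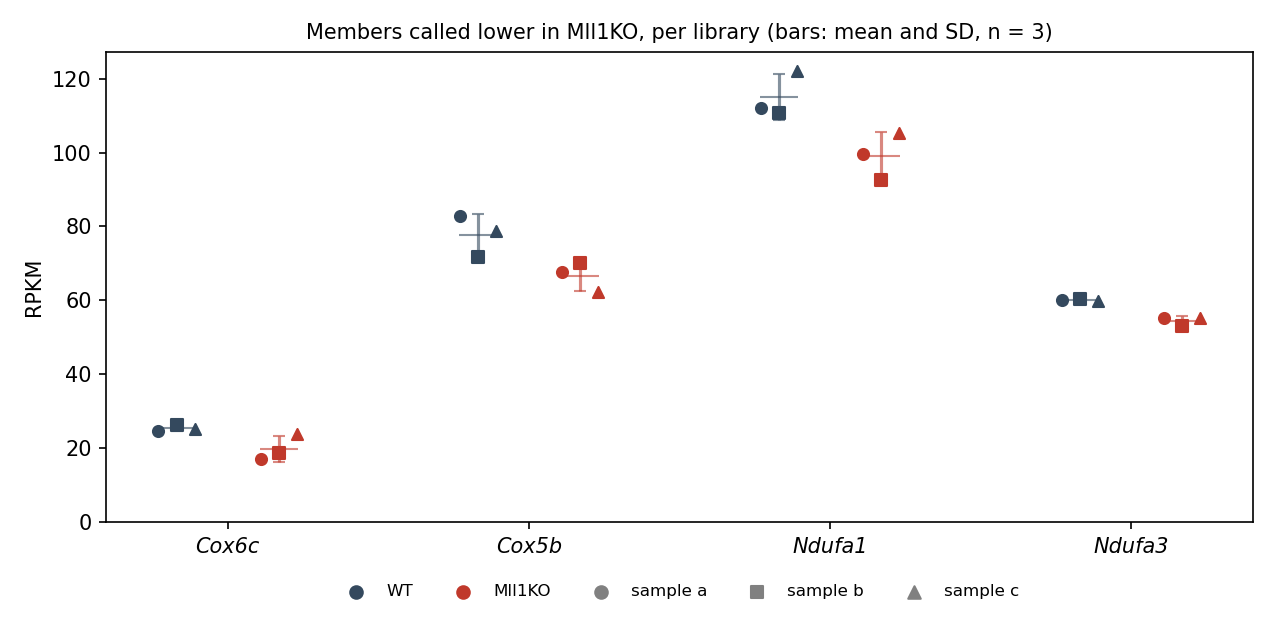
RPKM of the 4 members called lower in *Mll1KO*, with 1 point per sample, and bars for the mean and SD of 3 samples in each group. The *Mll1KO* points lie below the WT points for each gene, with a narrow gap for *Cox6c* between *Mll1KO* sample c at 23.8 RPKM and WT sample a at 24.8 RPKM.

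Several complex IV subunits exist as isoforms from paralogous genes, with one form found in most tissues and another in heart and skeletal muscle, lung or testis. *Cox4i1*, the general form of the regulatory subunit, was at 143 ± 6.89 RPKM in WT and 134 ± 3.92 RPKM in *Mll1KO*, and *Cox4i2*, known from lung and from low oxygen, at 30.6 ± 2.96 RPKM in WT and 34.2 ± 3.49 RPKM in *Mll1KO* (SD, n = 3 each). Their log2 fold changes were -0.09 and 0.15, neither was called (limma adjusted p = 0.170 and 0.196), and the change of the ratio between them was not tested. Over the alternatives other than the rod scaling *Cox4i1* ranged from -0.13 to -0.06 and *Cox4i2* from 0.09 to 0.23. With the rod scaling they were at -0.40 and -0.14. *Cox6b1* exceeded *Cox6b2*, the form known from testis, at 151 ± 8.06 RPKM beside 12.3 ± 0.977 RPKM in WT, with fold changes of -0.04 and 0.05. *Cox6a1*, the general form, lay just outside the threshold: it had 202.9, 209.4 and 207.9 RPKM in WT and 190.1, 187.5 and 193.1 RPKM in *Mll1KO* replicates a, b and c. The groups did not overlap (log2 fold change -0.12, 95% interval -0.21 to -0.03, limma adjusted p = 0.05002, just above the threshold), and limma-voom called it lower (adjusted p = 0.0409) within a range of 0.0409 to 0.154 over the alternatives other than the rod scaling. *Cox7a2* and *Cox8a*, likewise the general forms, had fold changes of -0.12 and -0.11 (limma adjusted p = 0.279 and 0.137). Over the alternatives other than the rod scaling these ranged from -0.21 to -0.07 and from -0.14 to -0.07. *Cox8a* was the most abundant nuclear-encoded member of all, at 360 ± 19.9 RPKM in WT and 333 ± 6.26 RPKM in *Mll1KO* (SD, n = 3 each), and its groups did not overlap. *Ndufa4* had 249.2, 270.5 and 278.1 RPKM in WT and 284.9, 290.2 and 287.9 RPKM in *Mll1KO* replicates a, b and c, a fold change of 0.11 (limma adjusted p = 0.122). It was called higher with RLE factors (adjusted p = 0.0479), and its fold change was -0.19 with the rod scaling. *Cox7a2l*, named above as a supercomplex factor, was at 30.5 ± 2.51 RPKM in WT and 29.98 ± 1.33 RPKM in *Mll1KO*. Whether its protein is functional in this strain was not tested.

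Complex V had 13 nuclear subunits listed, and 0 were called by limma or limma-voom, with 0 higher and 1 lower at an unadjusted p of 0.05. The 5 subunits of the catalytic head had fold changes from -0.06 (*Atp5c1*) to 0.02 (*Atp5b*), but without WT sample a *Atp5e* was at -0.24 and called lower (limma adjusted p = 0.0247). *Atp5b*, the catalytic beta subunit and the most abundant nuclear gene of the complex, had 247.1, 240.7 and 249.99 RPKM in WT and 245.6, 246.7 and 253.8 RPKM in *Mll1KO* replicates a, b and c, with an interval of the fold change from -0.07 to 0.11. Of the 4 peripheral stalk genes, which hold the head in place, *Atp5o* had the lowest fold change of the complex. It had 31.5, 28.6 and 32.4 RPKM in WT and 28.6, 26.8 and 27.6 RPKM in *Mll1KO* replicates a, b and c, and WT sample b was almost level with *Mll1KO* sample a. The fold change of -0.15 was not called (limma adjusted p = 0.0615), except without WT sample b (-0.20, adjusted p = 0.0260) or with the rod scaling, and the annotation places 35.6% of its exonic bases opposite antisense genes, whose reads cannot be told apart from its own without strand. The subunit c of the membrane ring is made from 3 genes with the same mature protein, of which *Atp5g2* was not analysed here. Of the others *Atp5g3* was the higher at 80.5 ± 5.93 RPKM in WT beside 2.48 ± 0.222 RPKM for *Atp5g1*, with fold changes of -0.05 and 0.02. *Atp5j2*, a membrane subunit, had the highest fold change of the complex, 0.09, with an interval from -0.07 to 0.25, but the fold change was -0.0002 without WT sample a.

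The 7 mitochondrially encoded genes were the most abundant members and made up between 1.46% and 1.81% of the library reads, beside 0.720% to 0.766% for the 84 nuclear members together. None of the 7 was called by limma or by limma-voom, with 0 at an unadjusted p of 0.05, and the groups overlapped for each. Their summed RPKM was 14798, 12191 and 11895 in WT replicates a, b and c and 11982, 12252 and 13471 in *Mll1KO* replicates a, b and c. WT sample a stood above all others and the remaining WT samples were level with *Mll1KO* samples a and b. The summed RPKM of the nuclear members was 4835, 4907 and 5150 in WT and 4840, 4859 and 4941 in *Mll1KO*, with WT sample a the lowest. The ratio of mitochondrial to nuclear summed RPKM was therefore 3.06 in WT sample a, 2.48 and 2.31 in WT samples b and c, and 2.48, 2.52 and 2.73 in *Mll1KO* replicates a, b and c.

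The order of the 7 genes was led by *mt-Cytb* of complex III, with 4424, 3690 and 3622 RPKM in WT and 3927, 3764 and 4085 RPKM in *Mll1KO* replicates a, b and c (log2 fold change 0.01, 95% interval -0.20 to 0.22). *mt-Nd1* followed at 2932, 2285 and 2253 RPKM in WT and 2087, 2335 and 2610 RPKM in *Mll1KO* (-0.08, -0.35 to 0.18). *mt-Co1*, the catalytic subunit of complex IV, was level with it at 2704, 2240 and 2198 RPKM in WT and 2122, 2177 and 2285 RPKM in *Mll1KO* (-0.11, -0.31 to 0.09). The ranges of *mt-Nd1* and *mt-Co1* overlapped in both groups. The complex I genes *mt-Nd5*, *mt-Nd4*, *mt-Nd2* and *mt-Nd6* followed at WT means of 1338 ± 200, 1129 ± 66.4, 867 ± 124 and 844 ± 105 RPKM (SD, n = 3), and *mt-Nd2* and *mt-Nd6* overlapped in both groups. Their *Mll1KO* means were 1270 ± 76.7, 1159 ± 62.0, 921 ± 135 and 754 ± 77.0 RPKM, and their fold changes -0.07, 0.04, 0.09 and -0.16. The lowest of the 7 was *mt-Nd6* (95% interval -0.38 to 0.06), the only protein-coding gene transcribed from the other strand of the mitochondrial genome.

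The level of 1 library shaped these values. WT sample a was the highest WT sample for all 7 genes and the highest of all 6 samples for 5 of them, and *Mll1KO* sample c was the highest *Mll1KO* sample for all 7. The median fold change of the 7 was -0.07 with all libraries and 0.05 without WT sample a, and between -0.14 and -0.0015 without each other library. The median coefficient of variation between replicates was 11.3% over the 7 genes, above the 4.77% of the nuclear members. The mitochondrial rRNA genes, named after their values were seen, did not stand apart in WT sample a: *mt-Rnr1* had 226, 230 and 238 RPKM in WT replicates a, b and c, and *mt-Rnr2* 412, 394 and 410 RPKM. In *Mll1KO* they had 241, 211 and 272 RPKM and 368, 396 and 453 RPKM, so that *Mll1KO* sample c was the highest of all 6 for both, as it was the highest *Mll1KO* sample for the 7 mRNAs. Their levels are those left after poly(A) selection and rRNA depletion. The RNA quality of single libraries was not given in the sources used here, and its part in the level of WT sample a was not tested. Of the 50-base stretches of *mt-Nd4* and *mt-Co1*, 62.2% and 51.1% also occur in other annotated transcripts, beside 0% for *mt-Cytb*, *mt-Nd1* and *mt-Nd6*, and how reads with several matches were counted was not given in the sources used here.

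**Figure D3:**
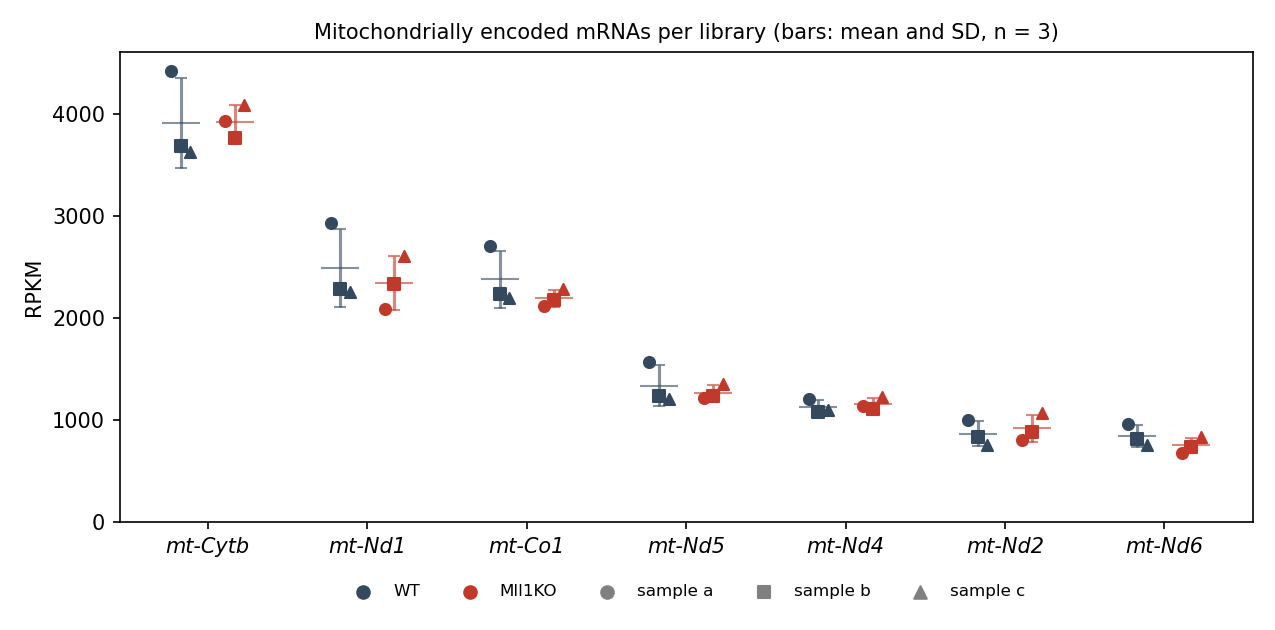
RPKM of the 7 mitochondrially encoded members, with 1 point per sample and bars for the mean and SD of 3 samples in each group. WT sample a is the highest WT point for each gene, and WT and *Mll1KO* points overlap throughout.

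Genes outside the symbol rule that build, feed or regulate the complexes were taken from lists written for this purpose. Of 40 listed assembly factors of the complexes, 3 were called higher (7.5%, beside 8.81% of all genes) and 0 lower, with a median fold change of 0.04, and limma-voom also called 3 higher and 0 lower. The 3 were *Fmc1*, an assembly factor of the ATP synthase, *Uqcc3*, of complex III, and *Lrpprc*, which stabilises mitochondrial mRNAs. *Fmc1* had 19.0, 19.5 and 23.1 RPKM in WT and 25.1, 24.8 and 29.3 RPKM in *Mll1KO* replicates a, b and c (log2 fold change 0.35, limma adjusted p = 0.0140). The call was lost without WT sample a, WT sample b or *Mll1KO* sample c (adjusted p = 0.0545, 0.0546 and 0.0516), and with the rod scaling the fold change was 0.05. The 27 listed partners include carriers and enzymes of coenzyme Q synthesis, but not the cytochrome c gene *Cycs*. Of these 27, 1 was called higher (3.70%), *Coq3* (0.24, limma adjusted p = 0.0224), and 2 lower (7.41%), *Atpif1* (-0.32, limma adjusted p = 0.0271) and *Pdss1*, beside 8.81% and 14.5% of all genes. The call of *Coq3* was lost with the replicate letter as a block (adjusted p = 0.0534) and without WT sample a (0.0769), WT sample c (0.0685), *Mll1KO* sample a (0.0509) or *Mll1KO* sample c (0.0774), and its fold change was 0.01 with the rod scaling. *Atpif1*, the inhibitor that binds the ATP synthase, had 38.1, 30.4 and 28.8 RPKM in WT and 24.5, 25.2 and 26.9 RPKM in *Mll1KO* replicates a, b and c. The high value of WT sample a widened the spread of its group, and without that sample the fold change was -0.20 (adjusted p = 0.0315). It was not called with TMM factors (adjusted p = 0.0507), with RLE factors (0.0538), or without *Mll1KO* sample a (0.0714) or *Mll1KO* sample b (0.0687).

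None of 27 listed genes of mitochondrial genome replication, transcription and RNA processing was called by limma, with 2 higher and 3 lower at an unadjusted p of 0.05 and 2 lower by limma-voom. The 70 mitochondrial ribosomal protein genes, whose products translate the mitochondrially encoded subunits, held 8 called lower (11.4%, beside 14.5% of all genes) and 0 higher, with a median fold change of -0.05. At an unadjusted p of 0.05 limma gave 2 higher and 17 lower, and limma-voom called 0 higher and 6 lower. The lowest of them was *Mrpl49*, with 41.9, 41.3 and 38.77 RPKM in WT and 34.4, 31.9 and 34.4 RPKM in *Mll1KO* replicates a, b and c (log2 fold change -0.27, limma adjusted p = 0.00320). Among 21 regulators of mitochondrial biogenesis, 2 were called higher and 2 lower (9.52% each, beside 8.81% and 14.5% of all genes). *Bhlhe40*, a transcriptional repressor, was at 8.23 ± 0.707 RPKM in WT and 13.7 ± 0.860 RPKM in *Mll1KO* (0.67, limma adjusted p = 0.000154), and *Ppargc1b*, a coactivator of nuclear genes for respiration, at 59.7 ± 1.90 RPKM in WT and 51.0 ± 0.870 RPKM in *Mll1KO* (-0.22, limma adjusted p = 0.00326; SD, n = 3 each). The others were *Esrrb* (higher), which is also on the rod list, and *Esrrg* (lower). Of 26 genes of protein import and of inner membrane structure, 2 were called higher (7.69%) and 1 lower (3.85%), again beside 8.81% and 14.5%. *Timm44*, which tethers the import motor to the channel, had 29.0, 29.5 and 29.7 RPKM in WT and 37.7, 40.2 and 38.4 RPKM in *Mll1KO* replicates a, b and c (0.39, limma adjusted p = 0.000167), and *Tomm20*, a receptor on the outer membrane, was the other higher gene. *Timm10*, a chaperone of the intermembrane space, was lower at 15.1 ± 0.394 RPKM in WT and 11.99 ± 0.680 RPKM in *Mll1KO* (-0.31, limma adjusted p = 0.00225).

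Cell type markers moved between the groups while the oxidative phosphorylation genes stood at these levels. The counts below stand beside 8.81% of all genes called higher and 14.5% called lower. Rod genes were higher in *Mll1KO* for 14 of 20 (70.0%) and lower for 1, *Nr2e3*, and their summed RPKM was 20205, 19199 and 19702 in WT replicates a, b and c and 24239, 24789 and 24020 in *Mll1KO* replicates a, b and c. Cone genes were higher for 8 of 14 and lower for 1, *Opn1sw*, with a summed RPKM of 726, 736 and 795 in WT and 1048, 1159 and 1107 in *Mll1KO*, led by *Guca1a*. Müller glia genes were higher for 7 of 16 (43.8%) and lower for 2 (12.5%), with sums of 1801, 1784 and 1934 in WT and 2208, 2276 and 2254 in *Mll1KO*, led by *Glul*. Markers of bipolar, horizontal and ganglion cells were called lower in larger numbers, with 9 lower and 0 higher of 15 bipolar genes, 7 lower and 0 higher of 8 listed horizontal genes, and 10 lower and 0 higher of 11 listed ganglion genes. Limma-voom called 0 of these bipolar, horizontal and ganglion genes higher, as did limma at an unadjusted p of 0.05. The summed RPKM fell from between 631 and 653 in WT to between 533 and 546 in *Mll1KO* for bipolar genes, from between 218 and 235 to between 154 and 167 for horizontal genes (led by *Ndrg1*), and from between 577 and 612 to between 404 and 486 for ganglion genes (led by *Sncg*). Amacrine genes went both ways, with 5 lower (38.5%) and 3 higher (23.1%) of 13 listed and a median fold change of 0.07. Their sum, between 697 and 719 RPKM in WT and between 626 and 660 RPKM in *Mll1KO*, followed *Calb2*, which went from 254.8 to 180.1 RPKM in the mean.

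Vascular genes were lower for 5 (45.5%) and higher for 2 (18.2%) of 11 listed, beside 14.5% and 8.81% of all genes, with sums of 132, 127 and 126 RPKM in WT and 106, 99.0 and 104 RPKM in *Mll1KO*, led by *Kdr*. Astrocyte genes were higher for 3 of 4, with sums between 13.9 and 14.7 RPKM in WT and between 22.5 and 22.9 RPKM in *Mll1KO*, led by *Gfap*. Of 5 listed microglial, 7 listed pigment epithelium and 4 listed blood genes, 0 were called by limma or limma-voom in either direction, with 1 pigment epithelium gene lower at an unadjusted p of 0.05 and 0 others in either direction. The pigment epithelium sum, led by *Ttr*, varied between single samples, from 109 to 336 RPKM, and none of the 11 skeletal muscle genes was in the table. If every library is instead scaled to the same rod sum, 9423 genes are called lower and 226 higher, the median of all genes moves from -0.03 to -0.30, and 85 of the 91 members are called lower with a median of -0.31. The part of the changed cell type markers in the levels of the oxidative phosphorylation genes was not tested.

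Promoters of 71 of the 91 members were found in the RefSeq sequences of GRCm38.p6, as windows of 250 bases before to 50 bases after the start of the RefSeq transcript, which can differ from the gene limits given above. Sequences searched on both strands as exact letters were the NRF1 palindrome, the ETS core (CCGGAAGT), a YY1 element, the CCAAT box, the GC box (GGGCGG) and the TATA box (TATAAA). The NRF1 palindrome occurred in 6 members (8.45%) and in 1.07% of 27025 genes with promoter entries, and the YY1 letters in 6 members (8.45%) and 0.755% of all. The ETS core occurred in 5 members (7.04%) and 4.31% of all, and the TATA box in 4 members (5.63%) and 15.7% of all. CCAAT and GC boxes occurred in 43.7% and 45.1% of the members and in 41.1% and 38.2% of all. The 27025 genes are not limited to the 11339 genes with expression values, and shares over those alone were not computed. None of the 6 with the NRF1 palindrome (*Atp5k*, *Cox6a1*, *Ndufa11*, *Ndufaf4*, *Ndufaf5* and *Uqcrc1*) was called. With 4.40% of the 91 members called, few calls could fall among 6 genes, so this says little about the palindrome. Only 3 of the 4 called genes could be searched, since *Cox6c* has no promoter entry here. The 100 bases before the RefSeq start are shown for the called genes with an entry and for *Cox6a1*, at the edge of the threshold, since these are the members with the lowest adjusted p. The windows are chr1:36691387-36691486 (plus strand) for *Cox5b*, chrX:37191239-37191338 (minus strand) for *Ndufa1*, chr7:3617273-3617372 (plus strand) for *Ndufa3* and chr5:115348959-115349058 (minus strand) for *Cox6a1*, read 5′ to 3′ on the strand of the gene with letters of the searched motifs in capitals.
Cox5b: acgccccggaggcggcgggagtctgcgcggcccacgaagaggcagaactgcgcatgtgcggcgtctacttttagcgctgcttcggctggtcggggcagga
Ndufa1: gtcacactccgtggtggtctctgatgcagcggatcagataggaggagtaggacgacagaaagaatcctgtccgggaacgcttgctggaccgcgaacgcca
Ndufa3: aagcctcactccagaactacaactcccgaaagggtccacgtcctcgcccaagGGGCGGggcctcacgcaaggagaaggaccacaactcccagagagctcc
Cox6a1: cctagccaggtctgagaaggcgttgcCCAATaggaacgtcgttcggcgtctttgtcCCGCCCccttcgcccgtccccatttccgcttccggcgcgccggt
In these 100 bases *Ndufa3* held a GC box, *Cox6a1* a CCAAT box and a GC box, and *Cox5b* and *Ndufa1* none of the searched letters.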

How the data were processed

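The table holds mouse retina RNA-seq of 3 *Mll1KO* and 3 WT samples. Per the study's methods and the submitters' processing notes, 1 × 50 base reads were aligned with STAR 2.0.4b (build named mm10 in the notes), counted per gene with featureCounts 1.45 from Subread, and filtered by CPM, which had to exceed 5 in 5 samples or more. The authors deposited RPKM per gene and library. The deposited log2 fold change and log2 mean CPM, and the gene-wise p-value and FDR, came from the authors' edgeR comparison (3.17.9 in the notes) and were not used. The 11404 lines held 11339 genes, since 59 IDs stood on several identical lines. Lists were matched by symbol, or by the annotation's symbol of the same gene ID where the table's differed (a spreadsheet date, an older name).

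RPKM was compared as log2(RPKM + 1), without a further filter, with limma 3.58.1 (lmFit, eBayes with a trend) in R 4.3.3, genotype as the only term, p adjusted after Benjamini and Hochberg across 11339 genes, and calls at 0.05. Whole reads were recovered from RPKM, library totals and gene lengths for 100% of genes within 0.05 reads, 53.4% of them at the exon length of GENCODE vM21 (GRCm38). For the others the shortest fitting length was taken, so their reads may be understated by a whole factor. The recovered reads served limma-voom, scaling factors and depth. Sequence sharing was counted as 50-base stretches of a gene's transcripts found in transcripts of other genes. Strandedness of the counting was not given in the sources used here.

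The members and lists were chosen with earlier results of these data known. Named genes are *Kmt2a*, every mitochondrially encoded member, the *Sdh* genes, the highest and lowest fold change and highest level among nuclear subunits of each of complexes I, III, IV and V, the isoform families, the extreme assembly factors, called members beyond 0.3, and the highest and lowest called gene of each pathway list. Results of some single genes are not reported here. Alternatives were TMM, RLE and upper-quartile factors, a total over nuclear genes, an equal rod sum, pseudocounts of 0.1 and 5, a mean RPKM of at least 1, limma-voom, a term for the replicate letter and leaving out each library. The fit was tested on simulated data: with reads drawn for the 11339 genes of the *Mll1KO* and WT comparison, limma called 50 of 50 genes raised and 50 of 50 lowered by a log2 of 1, 39 of 50 raised and 32 of 50 lowered by 0.3, and 6 of 11139 unchanged ones. Reads were drawn independently per library, with the same added spread between libraries for every gene. Gene-specific spread and shifts of many genes in a single library were not simulated, so these rates may differ from those in the data. Python 3.11.15, numpy 2.4.6, pandas 2.3.3 and matplotlib 3.10.9 were also used.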

Additional observations from a re-analysis of the deposited data

How the results depend on the processing

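With 16 alternatives, 76 of the 91 members were called in neither direction in any of them other than the rod scaling, 12 were called lower and 3 higher in at least 1. Leaving out 1 library gave from 1704 to 2536 genes called in place of 2643, from 674 to 977 higher, from 1030 to 1559 lower, and from 1 to 7 members called, of which 0 to 7 were lower and 0 to 1 higher. Members called higher and lower were 1 and 2 with TMM factors, 3 and 2 with RLE factors and 2 and 2 with upper-quartile factors, which moved the median of all genes to -0.0019, 0.00025 and -0.00020. An equal sum over rod genes called 9649 genes (226 higher, 9423 lower) and 85 members (all lower). It moved the medians to -0.30 for all genes, -0.31 for nuclear and -0.37 for mitochondrially encoded members, and turned fold changes above 0 to -0.30 for *mt-Cytb*, -0.27 for *mt-Nd4*, -0.27 for *Sdhc*, -0.18 for *Sdha*, -0.23 for *Uqcrq*, -0.21 for *Atp5j2*, -0.29 for *Atp5b*, -0.19 for *Atp5g1*, -0.24 for *Cox6b2*, -0.19 for *Ndufa4* and -0.25 for *mt-Rnr1*, because that scaling lowers every *Mll1KO* value and raises every WT value. For the other scalings and left-out libraries the cause was not tested. Over the 47 named genes and all alternatives, 631 values kept direction and call, 36 lost a call, 32 gained one, 42 uncalled ones changed sign and 11, those of the rod scaling above, changed sign and became called. The replicate letters did not pair the samples, since deviations from the group means correlated at -0.04, -0.19 and -0.01 for letters a, b and c. With the letter as a replicate block 2242 genes and the same 4 members were called. The fewest recovered reads of a member in any library were 95, and whether depth limits the calls of weakly expressed members was not tested.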
